A study of Homo sapiens with 12 samples.

Results

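The genes described here are 40 genes of the actin cytoskeleton and of its transcriptional control by serum response factor (SRF), measured by RNA sequencing in A375 cells, a human melanoma cell line. The list was drawn up by gene name: actin isoforms, SRF and its cofactors, transgelins and calponins, tropomyosins and caldesmon, myosin II chains, crosslinkers, LIM domain proteins, proteins of filament nucleation and turnover, and the kinases ROCK1 and ROCK2. Earlier results of these data were known when it was chosen. A gene was read from the locus of the deposited table that lists its symbol, and from the locus with the highest mean where several do. All 40 were found among the 31585 distinct loci of the table, and 36 of them were among the 15055 loci high enough to be tested, which needed at least 1 FPKM in at least 3 libraries. FPKM is the number of sequenced fragments of a locus, scaled to its transcript length and to the number of mapped fragments. The 4 genes under that minimum were ACTG2, CNN1, FLNC and LMOD1. Every one of the 36 tested genes had a library at the minimum in all 4 groups, so none was tested through 1 group alone. Some loci carry further symbols, and their reads cannot be assigned to 1 gene: ACTA2 with FAS-AS1, MKL2 with BC020644, TPM1 with AK055197, TPM4 with AK095546, and MYL6 with MYL6B.

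As background, SRF binds a DNA element called the CArG box. Its cofactors MKL1 and MKL2 (the myocardin-related transcription factors) bind monomeric actin, which keeps them in the cytoplasm, and they enter the nucleus when actin is driven into filaments. Many SRF targets themselves encode actin, actin-binding proteins and myosin subunits. YAP is a coactivator that is restrained by the LATS kinases of the Hippo pathway and acts mainly through the TEAD transcription factors, and its activity is known to rise with actin filament tension.

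The 4 groups, with 3 libraries each, were A375 cells stably transduced with a retroviral vector and selected with hygromycin. The Control group carried the empty vector MSCV-IRES-Hygro. The YAP-S127A group carried human YAP with the serine-to-alanine mutation S127A, which removes the LATS site behind cytoplasmic retention. The YAP-S94A,S127A group carried the same form with S94A added, which prevents binding to TEADs. The YAP-2SA group carried S127A and S381A, the latter a LATS site behind degradation, according to the library titles, whereas the series' design text and 1 further label field also list S94A. The titles were followed. Every group also had the cells' own YAP. The series' design text gives 3 replicates plated from each selected line and names no repeat of the transduction, so the p-values below measure the spread between these samples, which may be technical. The time from plating to lysis was 24 h by the series' design text and 48 h by the study's methods.

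YAP1, the gene introduced into the cells, was checked first. It stood at 34.1 and 33.0 FPKM in the libraries labelled Control replicates 1 and 2, at 171.8 FPKM in the library labelled Control replicate 3, and at 130 to 187 FPKM in the 9 libraries of the YAP forms. The library labelled Control replicate 3 thus resembled the libraries with a YAP form in its YAP1 level and went against its label, so counts and fits against Control are given with and without it. The ratios, shares and sums over related genes did not overlap between YAP-2SA and Control with or without it. Without it the smallest two-sided exact permutation p they allow is 0.2. Summed FPKM was between 790865 and 901558 per library, between 20161 and 20656 loci were above 0, and pairs of libraries within a group correlated at 0.960 to 0.975 across loci, which are not independent replicates. Read counts are not part of the deposited values, so sequencing depth is unknown. Of the melanocyte lineage markers checked, PMEL and MLANA were at most 0.508 and 0.580 FPKM in any library, TYR and DCT at most 0.0303 and 0.0274 FPKM, and TYRP1 at most 0.949 FPKM, so the pigment genes that define the lineage were nearly absent. MITF and SOX10 were expressed.

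Promoter windows of the members, from 250 bases before to 50 bases after the RefSeq start site (GRCh38.p14), were available for 38 of the 40 genes, all but TAGLN and MYL9. A CArG box was searched as CC, a run of A or T bases and GG, which reads the same way on both strands. It was found in 7 of these 38 windows (18.4%) and in 1.29% of all 27305 promoters. Only 1 window per gene was searched, so a gene without a match may hold a CArG box at another start site. The following sites are shown because the genes that hold them differed in their response: CNN2, TPM4, FLNA and FHL2 rose in YAP-2SA cells, ROCK2 fell, SRF did not pass the test and ACTG2 was too low to be tested. Each run gives 30 bases, 5′ to 3′ on the strand of the gene, with the CArG box in capitals and coordinates on GRCh37, obtained by an exact match of the window to that genome.
CNN2, chr19:1026508-1026537, plus strand: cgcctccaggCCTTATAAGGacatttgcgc
TPM4, chr19:16178165-16178194, plus strand: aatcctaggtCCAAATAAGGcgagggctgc
FLNA, chrX:153603077-153603106, minus strand: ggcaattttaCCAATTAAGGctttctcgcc
FHL2, chr2:106055052-106055081, minus strand: aatctggagaCCTTAAAAGGcacgtgggag
ROCK2, chr2:11485617-11485646, minus strand: aaatgtacttCCTTAAATGGgtttactggg
SRF (site 1), chr6:43138967-43138996, plus strand: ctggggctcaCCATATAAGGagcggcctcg
SRF (site 2), chr6:43138987-43139016, plus strand: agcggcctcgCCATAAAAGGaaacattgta
ACTG2 (site 1), chr2:74120015-74120044, plus strand: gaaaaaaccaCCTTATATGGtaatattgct
ACTG2 (site 2), chr2:74120052-74120081, plus strand: cgtcagctggCCTTTTTAGGgactttgttt

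The TEAD motif GGAATG, with its reverse complement CATTCC, was found in 8 of the 38 windows (21.1%) and in 14.05% of all promoters. The genes were CALD1, MYH9, MYL12A and PFN1, which rose in YAP-2SA cells, MYH10 and ROCK2, which fell, and FLNC and LMOD1, which were not tested. ROCK2 held both this motif and a CArG box. The sites of MYH9, MYH10 and FLNC are shown, in the same layout with the motif in capitals, because the paralogs MYH9 and MYH10 moved in opposite directions and FLNC was detected mainly in cells with YAP-S127A or YAP-2SA.
MYH9, chr22:36784065-36784094, minus strand: ggctcccggctgGGAATGgtcccgcggctc
MYH10, chr17:8534229-8534258, minus strand: gccaatgagcgtCATTCCaggtgggtggag
FLNC, chr7:128470345-128470374, plus strand: cgggccgggcggCATTCCtgggaggccggc

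The AP-1 motif TGACTCA, or TGAGTCA on the other strand, was found in 1 of the 38 windows (2.63%), that of TAGLN2, and in 4.92% of all promoters. These matches describe the letters of the windows. Binding of SRF, TEADs or AP-1 was not measured in these cells.

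In YAP-2SA cells 23 of the 36 tested genes rose and 4 fell against Control at a Benjamini-Hochberg adjusted p under 0.05 in limma, where 22.9% of all loci tested rose and 19.5% fell. Among the genes 63.9% rose and 11.1% fell. The median log2 fold change of the 36 genes was 0.37, against 0.01 over all loci tested. The list was chosen with earlier results of these data known, so its contrasts with all loci are descriptive. Log2 fold changes throughout are differences of mean log2(FPKM + 1), so that the change of a weakly expressed gene comes out too small. A rise of more than 2-fold in mean FPKM was found for 11 of the 23 genes, where 7.59% of all loci met both criteria, and none of the 4 falls exceeded 2-fold, where 7.86% of all loci did with an adjusted p under 0.05. Without the library labelled Control replicate 3, 20 genes rose and 3 fell, against 20% and 17.2% of loci. The calls lost were those of TAGLN2, ACTN4, PFN1 and CSRP2. Over 20 alternative settings, 12 of which left out a library, the call was lost in 10 for CSRP2, in 6 each for ACTN4 and PFN1, in 3 for TAGLN2 and in 1 for PDLIM7. In bulk RNA, a change in the share of cells with a transcript and a change in the amount per cell cannot be told apart.

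**Figure D1:**
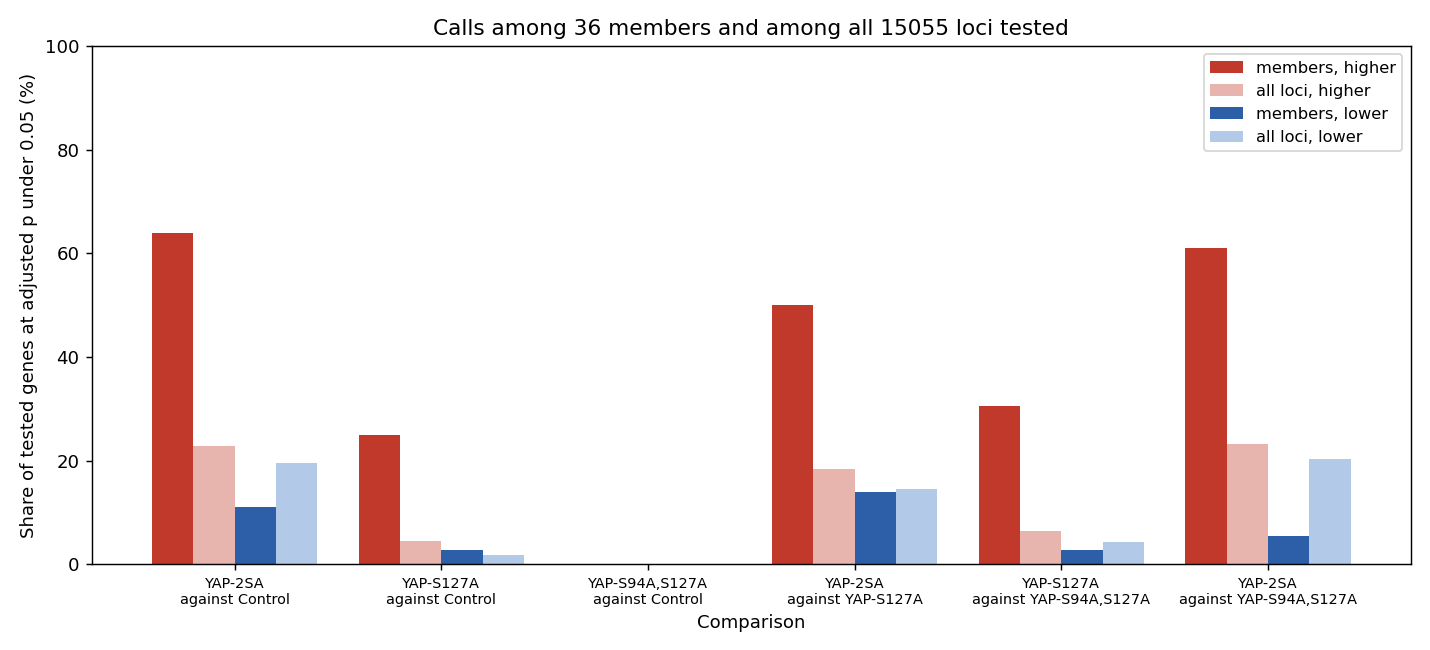
Share of genes called higher or lower at an adjusted p under 0.05 (%, limma) in each of the 6 comparisons, with dark bars for the 36 tested genes of the list and pale bars for all 15055 loci tested. In YAP-2SA against Control the list stood at 63.9% higher and all loci at 22.9%. In YAP-S94A,S127A against Control no gene of the list was called, where 0.0864% of all loci were higher and 0.093% lower.

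**Figure D2:**
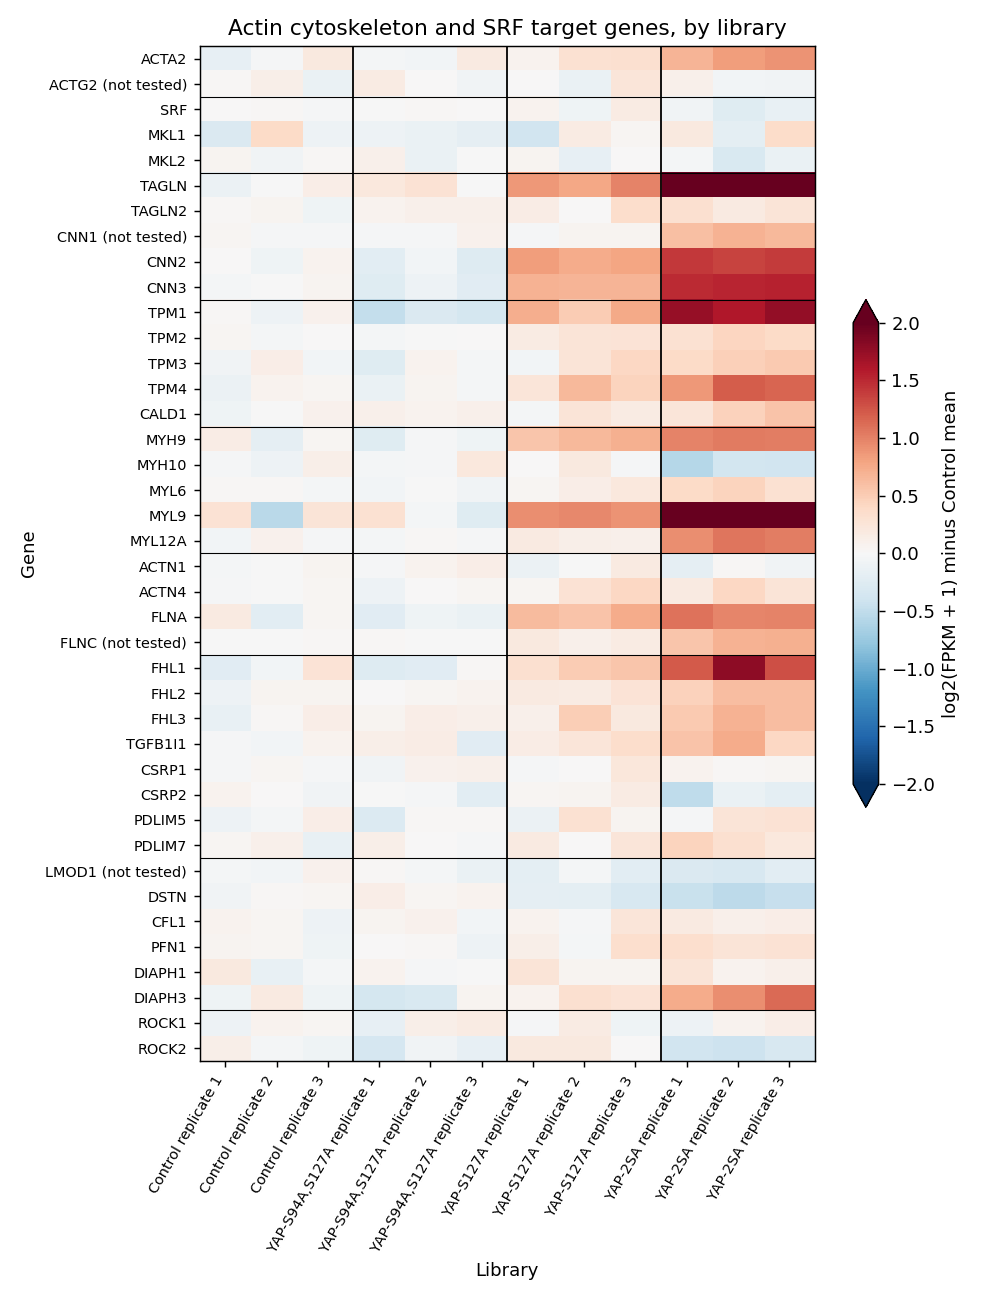
Level of each of the 40 genes in each of the 12 libraries, as log2(FPKM + 1) minus the mean of the 3 Control libraries, with red for higher and blue for lower and the color scale ending at 2 in each direction. Black lines separate the groups and the functional classes. The YAP-2SA columns hold the strongest red, in TAGLN and MYL9, the YAP-S127A columns paler red in many of the same rows, and the YAP-S94A,S127A columns little color.

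The transgelins and calponins, small proteins that bind along actin filaments and are classical smooth muscle markers and SRF targets, had the highest median change of the classes with more than 1 tested gene, and all 4 tested members rose in YAP-2SA cells. Of all loci tested, 22.9% rose. TAGLN (transgelin, chr11:117070086-117078180, plus strand) was at 2.20, 2.48 and 2.80 FPKM in Control, at 3.03, 3.27 and 2.48 FPKM in the YAP-S94A,S127A libraries, at 5.35, 4.93 and 5.95 FPKM in YAP-S127A and at 13.4, 15.1 and 18.8 FPKM in YAP-2SA. The YAP-2SA libraries were the highest, the YAP-S127A libraries lay between them and the rest, and the other 2 groups overlapped. The log2 fold change of TAGLN in YAP-2SA against Control was 2.25 (SE 0.13, adjusted p = 1.73e-07), a 6.32-fold ratio of mean FPKM. CNN3 (calponin 3, chr1:95362505-95392779, minus strand), the non-muscle isoform linked to stress fibers, was at 86.2, 87.8 and 92.2 FPKM in Control, 74.8, 82.6 and 75.6 FPKM in YAP-S94A,S127A, 144, 143 and 142 FPKM in YAP-S127A and 252, 257 and 259 FPKM in YAP-2SA. No library of 1 group overlapped with another group, and the YAP-S94A,S127A libraries lay below Control. Its log2 fold change in YAP-2SA against Control, 1.52 (SE 0.05, adjusted p = 2.2e-09), had the smallest adjusted p of the 36 genes. CNN2 (calponin 2, chr19:1026585-1039067, plus strand), found in both smooth muscle and non-muscle cells, was at 31.1, 28.9 and 32.5 FPKM in Control, 26.4, 29.5 and 25.6 FPKM in YAP-S94A,S127A, 55.8, 52.3 and 54.0 FPKM in YAP-S127A and 83.9, 79.7 and 82.6 FPKM in YAP-2SA. It held the CArG box printed above, and its log2 fold change in YAP-2SA against Control was 1.39 (SE 0.06, adjusted p = 3e-08).

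TAGLN2, the transgelin of non-muscle cells, had a smaller log2 fold change than TAGLN and a far higher FPKM. It was at 398, 406 and 368 FPKM in Control, 410.0, 420.1 and 419.8 FPKM in YAP-S94A,S127A, 433, 394 and 497 FPKM in YAP-S127A and 487, 444 and 468 FPKM in YAP-2SA. All YAP-2SA libraries lay above all Control libraries, with a log2 fold change of 0.26 (SE 0.08, adjusted p = 0.0255), and the adjusted p was 0.0884 without the library labelled Control replicate 3. CNN1, the smooth muscle calponin, was below the minimum for testing. It was listed at 0.533, 0.638 and 0.585 FPKM in YAP-2SA and at no more than 0.0733 FPKM in the other 9 libraries, of which 5 listed it at 0. In a fit of 23437 loci without the minimum on FPKM, its log2 difference in YAP-2SA against Control was 0.65 (SE 0.04, adjusted p = 5.22e-07), and 0.64 with an adjusted p of 7.19e-06 when the library labelled Control replicate 3 was also left out.

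**Figure D3:**
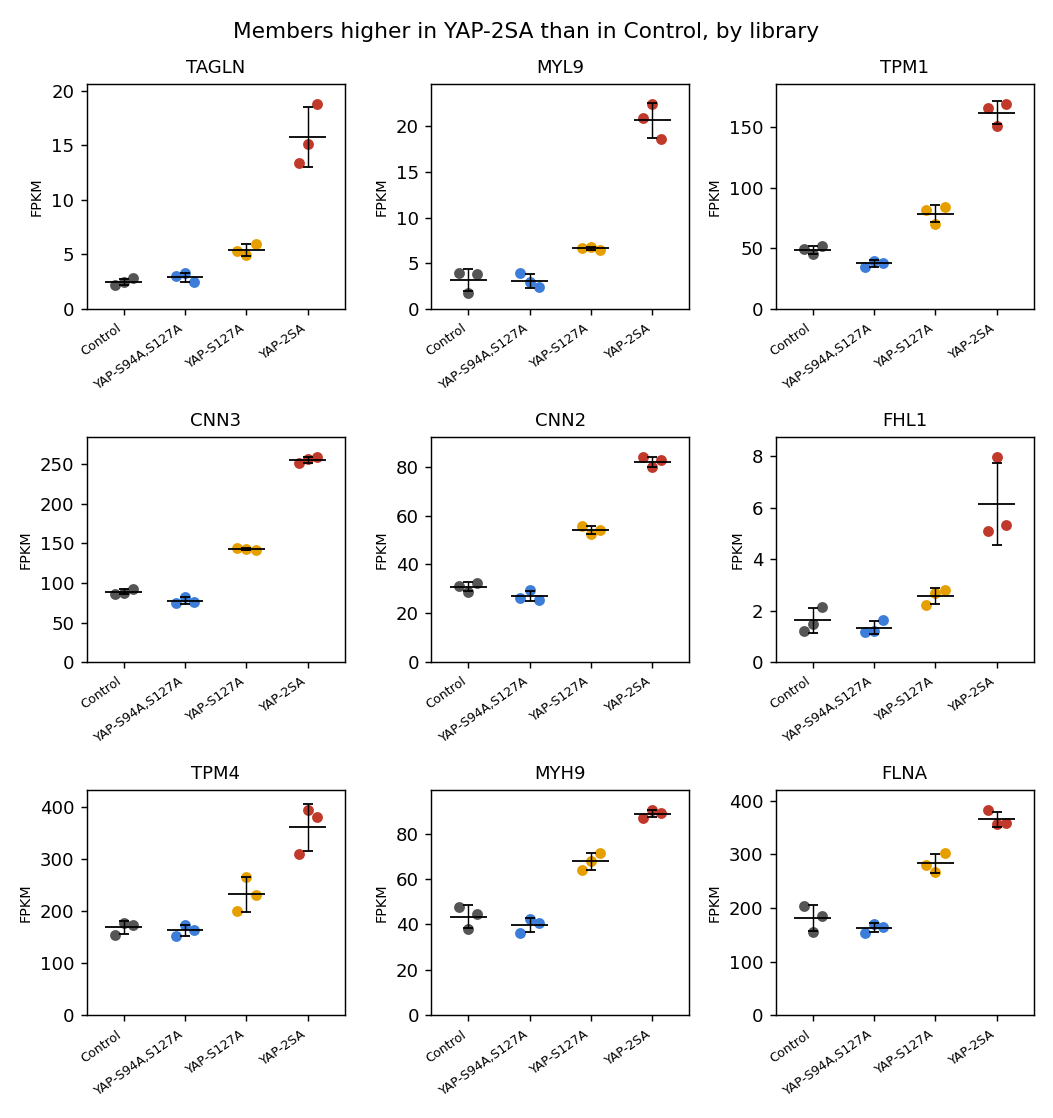
FPKM (linear axes from 0) of 9 genes that rose in YAP-2SA cells, with 1 point per library and the group mean with its SD (n = 3) as a bar and whiskers. In each panel the YAP-2SA libraries are above all others and the YAP-S127A libraries above those of Control and YAP-S94A,S127A, as for TPM1 with means of 49.0, 37.5, 78.4 and 161 FPKM from left to right.

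Tropomyosins form coiled coils along the actin filament and set which other proteins reach it, and all 4 of their genes rose in YAP-2SA cells, as did CALD1. Of all loci tested, 22.9% rose. TPM1 (chr15:63334819-63364114, plus strand), a tumor suppressor in several epithelial cancers and a known SRF target, was at 49.8, 45.3 and 51.7 FPKM in Control, 34.8, 39.6 and 38.0 FPKM in YAP-S94A,S127A, 81.5, 70.3 and 83.6 FPKM in YAP-S127A and 165, 151 and 169 FPKM in YAP-2SA. The 4 groups did not overlap, with YAP-S94A,S127A lowest. Its log2 fold change in YAP-2SA against Control was 1.70 (SE 0.08, adjusted p = 4.97e-08). TPM4 (chr19:16177831-16213812, plus strand), which holds a CArG box, was at 155, 177 and 174 FPKM in Control, 153, 174 and 164 FPKM in YAP-S94A,S127A, 199.7, 265 and 230.2 FPKM in YAP-S127A and 309, 393 and 379.6 FPKM in YAP-2SA, and its log2 fold change in YAP-2SA against Control was 1.09 (SE 0.12, adjusted p = 2.7e-05). Control and YAP-S94A,S127A libraries overlapped for this gene. The changes of TPM2 and TPM3 were smaller. TPM2, the isoform gene best known from muscle, was at 174, 165 and 171 FPKM in Control, 165, 168 and 171 FPKM in YAP-S94A,S127A, 189.5, 204 and 205 FPKM in YAP-S127A and 211, 229 and 221 FPKM in YAP-2SA, with a log2 fold change of 0.37 (SE 0.05, adjusted p = 0.00012) in YAP-2SA against Control. TPM3, with the highest level of the 4 genes, was at 349.7, 402 and 355 FPKM in Control, 310.0, 388 and 359.5 FPKM in YAP-S94A,S127A, 353, 439 and 492 FPKM in YAP-S127A and 479.7, 513 and 528 FPKM in YAP-2SA. Its YAP-S127A libraries spread from the Control range into the YAP-2SA range, and its log2 fold change in YAP-2SA against Control was 0.46 (SE 0.12, adjusted p = 0.0111).

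The make-up of the tropomyosin pool was compared in each library. Summed FPKM of the 4 genes was 756 ± 31.0 (SD, n = 3) in Control and 1249 ± 73.6 (SD, n = 3) in YAP-2SA. TPM1 made up 6.84, 5.74 and 6.88% of this sum in Control, 5.24, 5.15 and 5.20% in YAP-S94A,S127A, 9.89, 7.18 and 8.27% in YAP-S127A and 14.2, 11.7 and 13.0% in YAP-2SA. The share of TPM3 was 48.7 ± 1.92% (SD, n = 3) in Control and 40.6 ± 0.631% (SD, n = 3) in YAP-2SA. The shares of TPM1, TPM2, TPM3 and TPM4 did not overlap between these 2 groups, and each gave a two-sided exact permutation p of 0.1, the smallest that 3 libraries against 3 allow. CALD1 (caldesmon), which binds actin, tropomyosin and myosin and inhibits their interaction, was at 32.1, 34.0 and 36.5 FPKM in Control, 36.9, 36.1 and 36.8 FPKM in YAP-S94A,S127A, 33.1, 41.3 and 38.2 FPKM in YAP-S127A and 40.5, 47.4 and 51.3 FPKM in YAP-2SA. Its log2 fold change in YAP-2SA against Control was 0.42 (SE 0.10, adjusted p = 0.00473).

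Non-muscle myosin II, the motor of stress fibers, is built from heavy chains (MYH9, MYH10), essential light chains (MYL6) and regulatory light chains (MYL9, MYL12A), and 4 of these 5 genes rose in YAP-2SA cells while MYH10 fell. This is 80% and 20%, where 22.9% of all loci rose and 19.5% fell, so the share of falls was near that of all loci. MYL9 (chr20:35169900-35179850, plus strand), the regulatory light chain enriched in smooth muscle, had the largest log2 fold change of the 36 genes. It was at 3.92, 1.77 and 3.79 FPKM in Control, 3.95, 2.92 and 2.40 FPKM in YAP-S94A,S127A, 6.69, 6.80 and 6.50 FPKM in YAP-S127A and 21.0, 22.4 and 18.6 FPKM in YAP-2SA. The library labelled Control replicate 2 was the lowest of the 12, the YAP-2SA libraries stood far above all others, and the log2 fold change in YAP-2SA against Control was 2.42 (SE 0.21, adjusted p = 4.49e-06), a 6.54-fold ratio of mean FPKM. MYL12A (chr18:3247479-3256234, plus strand), the widely expressed regulatory light chain, was at 95.1, 105 and 96.8 FPKM in Control, 96.5, 101 and 97.3 FPKM in YAP-S94A,S127A, 112, 108 and 106 FPKM in YAP-S127A and 189, 209 and 203 FPKM in YAP-2SA. The YAP-2SA libraries stood apart, while the other 3 groups lay between 95.1 and 112 FPKM. Its log2 fold change in YAP-2SA against Control was 1.01 (SE 0.05, adjusted p = 1.1e-07). MYL6 was at 488, 488 and 467 FPKM in Control, 465, 479 and 460.1 FPKM in YAP-S94A,S127A, 492, 529 and 557 FPKM in YAP-S127A and 628, 655 and 592 FPKM in YAP-2SA, with a log2 fold change of 0.38 (SE 0.06, adjusted p = 0.000463) in YAP-2SA against Control. MYL9 made up 0.544 ± 0.214% (SD, n = 3) of the summed FPKM of the 3 light chain genes in Control and 2.44 ± 0.136% (SD, n = 3) in YAP-2SA, so it remained a minor light chain transcript.

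The heavy chain genes diverged. MYH9 (myosin IIA, chr22:36677326-36784055, minus strand) was at 47.8, 37.9 and 44.6 FPKM in Control, 36.3, 42.5 and 40.6 FPKM in YAP-S94A,S127A, 63.8, 68.0 and 71.4 FPKM in YAP-S127A and 87.0, 90.1 and 89.2 FPKM in YAP-2SA, and its log2 fold change in YAP-2SA against Control was 1.02 (SE 0.09, adjusted p = 4.12e-06). MYH10 (myosin IIB, chr17:8377525-8534694, minus strand) was at 42.5, 40.2 and 46.8 FPKM in Control, 41.9, 42.4 and 49.98 FPKM in YAP-S94A,S127A, 43.5, 49.4 and 42.4 FPKM in YAP-S127A and 28.7, 33.1 and 32.7 FPKM in YAP-2SA, and fell by 0.44 on the log2 scale in YAP-2SA against Control (SE 0.09, adjusted p = 0.00279). YAP-2SA libraries were the lowest for MYH10, and the other 3 groups overlapped. The ratio of MYH9 to MYH10 FPKM was 1.12, 0.941 and 0.954 in Control, 0.866, 1.004 and 0.811 in YAP-S94A,S127A, 1.47, 1.38 and 1.68 in YAP-S127A and 3.03, 2.73 and 2.73 in YAP-2SA. The heavy chains were thus near parity in Control and tilted towards MYH9 in YAP-S127A and further in YAP-2SA, without overlap between these 3 groups. A two-sided exact permutation test of YAP-2SA against Control gave p = 0.1, the smallest possible here.

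**Figure D4:**
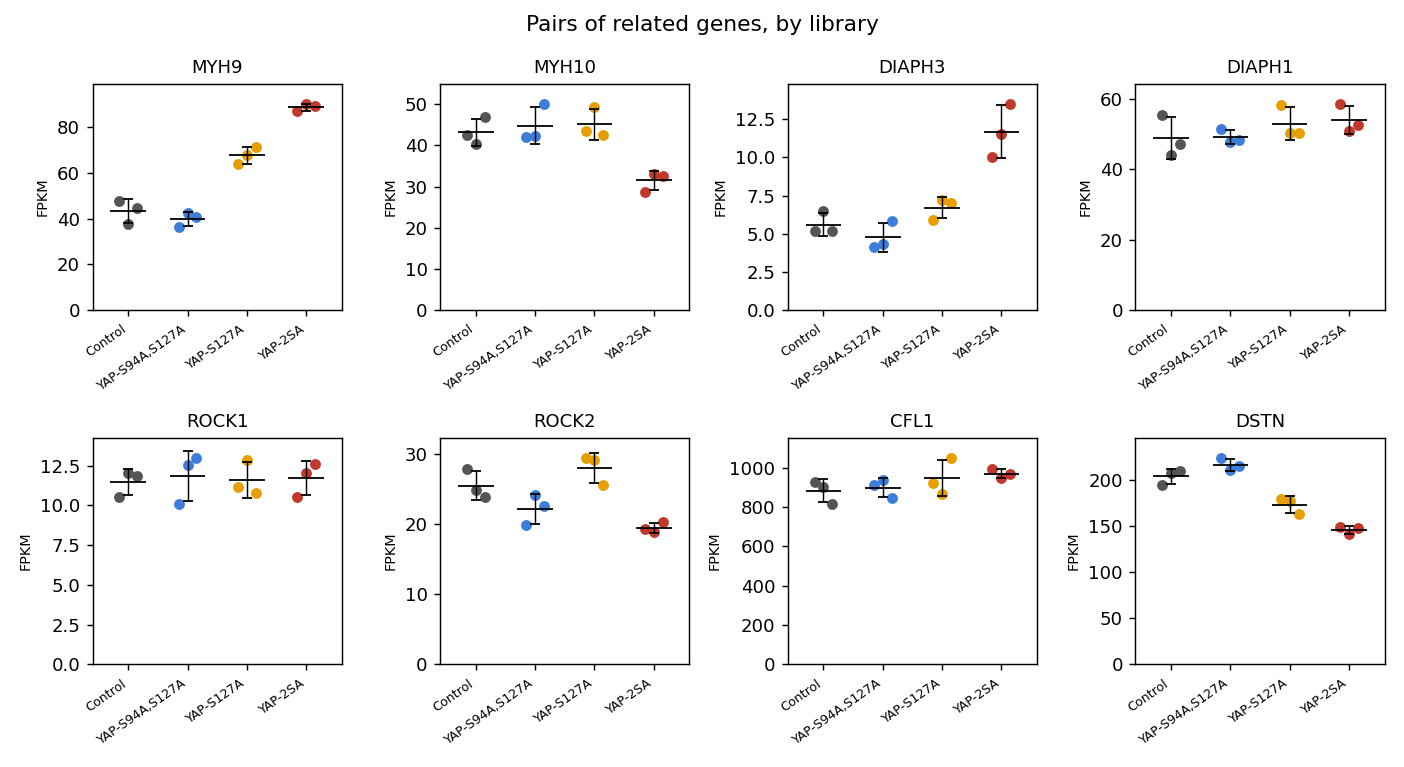
FPKM (linear axes from 0) of 4 pairs of related genes, with 1 point per library and the group mean with its SD (n = 3). MYH9 rises and MYH10 falls in YAP-2SA (means of 88.8 and 31.5 FPKM, against 43.4 and 43.2 FPKM in Control), DIAPH3 rises while DIAPH1 has means of 48.8 and 53.9 FPKM in Control and YAP-2SA, and ROCK2 and DSTN are lower in YAP-2SA than in Control.

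ACTA2 (smooth muscle alpha-actin, chr10:90694831-90751096, minus strand), the actin isoform that marks myofibroblasts, was at 3.27, 3.68 and 4.45 FPKM in Control, 3.62, 3.58 and 4.43 FPKM in YAP-S94A,S127A, 4.02, 4.92 and 4.98 FPKM in YAP-S127A and 6.67, 7.54 and 7.90 FPKM in YAP-2SA. The YAP-2SA libraries were the highest and the other groups overlapped, with a log2 fold change in YAP-2SA against Control of 0.81 (SE 0.12, adjusted p = 0.000226). ACTG2, the enteric smooth muscle actin, was below the minimum for testing. No library exceeded 0.3004 FPKM for it, and its groups overlapped.

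SRF itself and its cofactors were not called in YAP-2SA against Control. SRF was at 16.2, 16.3 and 15.8 FPKM in Control, 16.1, 16.4 and 16.2 FPKM in YAP-S94A,S127A, 17.1, 15.2 and 18.3 FPKM in YAP-S127A and 15.4, 13.5 and 14.4 FPKM in YAP-2SA. Its YAP-2SA libraries were all below its Control libraries, but the log2 difference of -0.15 (SE 0.07, adjusted p = 0.103) did not pass the test, and its 95% confidence interval was -0.30 to 0.00. MKL1 ranged from 3.84 to 7.25 FPKM and MKL2 from 3.25 to 4.61 FPKM over the 12 libraries, with overlap between all groups. The 95% confidence interval of the log2 difference in YAP-2SA against Control was -0.32 to 0.57 for MKL1 and -0.37 to 0.05 for MKL2. None of the 3 genes was called in any of the 6 comparisons, except SRF in YAP-2SA against YAP-S127A.

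Crosslinkers join actin filaments into bundles and networks, and 2 of 3 tested genes rose in YAP-2SA cells, where 22.9% of all loci rose. FLNA (filamin A, chrX:153576892-153603002, minus strand), which crosslinks filaments into orthogonal networks and anchors them to integrins, was at 203, 155 and 185 FPKM in Control, 154, 170.4 and 165 FPKM in YAP-S94A,S127A, 281, 268 and 303 FPKM in YAP-S127A and 382, 357 and 358 FPKM in YAP-2SA. The 2 groups with the active YAP forms were separate from each other and from the rest, and the log2 fold change of FLNA in YAP-2SA against Control was 1.02 (SE 0.09, adjusted p = 6.48e-06). ACTN4 (alpha-actinin 4) was at 279.7, 283 and 292 FPKM in Control, 266, 286 and 293 FPKM in YAP-S94A,S127A, 294, 348 and 380.6 FPKM in YAP-S127A and 322, 380.4 and 342 FPKM in YAP-2SA, and its log2 fold change of 0.28 (SE 0.09, adjusted p = 0.0307) in YAP-2SA against Control had an adjusted p of 0.0543 without the library labelled Control replicate 3. For ACTN1, the other non-muscle alpha-actinin, the levels overlapped between all groups, at 126 to 161 FPKM, and the 95% confidence interval of its log2 difference was -0.25 to 0.10. FLNC, the muscle filamin, was too low to be tested. FLNC was listed at no more than 0.0253 FPKM in the Control and YAP-S94A,S127A libraries, at 0.152, 0.0845 and 0.138 FPKM in YAP-S127A and at 0.478, 0.629 and 0.652 FPKM in YAP-2SA, without overlap between those 3 levels. In the fit without the minimum on FPKM its log2 difference in YAP-2SA against Control was 0.65 (SE 0.04, adjusted p = 1.06e-06), and 0.66 with an adjusted p of 1.06e-05 when the library labelled Control replicate 3 was also left out.

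Of 8 genes for LIM domain proteins, which bind filaments or carry signals between them and the nucleus, 5 rose and 1 fell in YAP-2SA cells. This is 62.5% and 12.5%, where 22.9% of all loci rose and 19.5% fell. FHL1 (chrX:135228861-135293518, plus strand), a four-and-a-half LIM protein of muscle, was at 1.21, 1.497 and 2.15 FPKM in Control, 1.18, 1.22 and 1.62 FPKM in YAP-S94A,S127A, 2.22, 2.68 and 2.82 FPKM in YAP-S127A and 5.08, 7.95 and 5.33 FPKM in YAP-2SA, and its log2 fold change in YAP-2SA against Control was 1.44 (SE 0.17, adjusted p = 5.88e-05). FHL2, an SRF target that also antagonizes SRF and holds a CArG box above, was at 11.4, 12.8 and 12.9 FPKM in Control, 12.4, 12.7 and 13.0 FPKM in YAP-S94A,S127A, 14.1, 13.9 and 15.1 FPKM in YAP-S127A and 17.4, 19.4 and 19.5 FPKM in YAP-2SA. The log2 fold change of FHL2 was 0.57 (SE 0.06, adjusted p = 4.03e-05) in YAP-2SA against Control. FHL3 was at 8.05, 9.20 and 10.0 FPKM in Control, 9.48, 9.97 and 9.76 FPKM in YAP-S94A,S127A, 9.75, 13.1 and 10.6 FPKM in YAP-S127A and 13.5, 15.3 and 14.4 FPKM in YAP-2SA, with a log2 fold change of 0.61 (SE 0.10, adjusted p = 0.000774) in YAP-2SA against Control. For all 3 FHL genes every YAP-2SA library was above every other library. TGFB1I1 (Hic-5), a focal adhesion adaptor of the paxillin family, was at 11.8, 11.5 and 12.6 FPKM in Control, 13.1, 13.4 and 10.1 FPKM in YAP-S94A,S127A, 13.3, 14.4 and 15.5 FPKM in YAP-S127A and 18.3, 20.7 and 16.2 FPKM in YAP-2SA, with a log2 fold change of 0.57 (SE 0.11, adjusted p = 0.00199) in YAP-2SA against Control. PDLIM7 (enigma), a PDZ and LIM protein of stress fibers, was at 41.2, 43.0 and 36.0 FPKM in Control, 43.6, 40.3 and 39.4 FPKM in YAP-S94A,S127A, 45.4, 40.3 and 47.4 FPKM in YAP-S127A and 54.9, 50.1 and 46.5 FPKM in YAP-2SA. Its log2 fold change was 0.33 (SE 0.09, adjusted p = 0.0122), and its YAP-2SA range met that of YAP-S127A.

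CSRP2, a cysteine-rich LIM protein of smooth muscle, went the other way. It was at 28.0, 26.8 and 25.3 FPKM in Control, 26.7, 26.4 and 22.9 FPKM in YAP-S94A,S127A, 27.4, 27.9 and 30.04 FPKM in YAP-S127A and 18.5, 24.2 and 23.2 FPKM in YAP-2SA, and fell by 0.28 on the log2 scale in YAP-2SA against Control (SE 0.10, adjusted p = 0.0409). The YAP-2SA libraries were below all Control libraries, with replicate 1 the lowest, and the adjusted p was 0.0504 without the library labelled Control replicate 3. CSRP1 stayed between 74.7 and 91.6 FPKM and PDLIM5 between 10.4 and 16.1 FPKM, with overlap between all groups. The 95% confidence interval of the log2 difference in YAP-2SA against Control was -0.11 to 0.20 for CSRP1 and -0.11 to 0.47 for PDLIM5.

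Among genes of filament nucleation and turnover the directions were mixed, with 2 higher, 1 lower and 2 not called of 5 tested. This is 40% higher and 20% lower, where 22.9% of all loci were higher and 19.5% lower. The share of falls was thus near that of all loci. DIAPH3 (chr13:60239717-60738062, minus strand), a formin that elongates unbranched filaments, was at 5.17, 6.47 and 5.16 FPKM in Control, 4.14, 4.32 and 5.84 FPKM in YAP-S94A,S127A, 5.93, 7.19 and 6.99 FPKM in YAP-S127A and 10.0, 11.6 and 13.5 FPKM in YAP-2SA. The YAP-2SA libraries were the highest, and the log2 fold change against Control was 0.94 (SE 0.14, adjusted p = 0.000289). DIAPH1, its more abundant relative, lay between 43.97 and 58.4 FPKM in all libraries, with a 95% confidence interval of -0.06 to 0.35 for the log2 difference. PFN1 (profilin 1), which feeds actin monomers to formins and had the highest level of the 40 genes, was at 2013, 1997 and 1832 FPKM in Control, 1950.0, 1974 and 1812 FPKM in YAP-S94A,S127A, 2105, 1899 and 2465 FPKM in YAP-S127A and 2451, 2318 and 2366 FPKM in YAP-2SA. Its log2 fold change was 0.29 (SE 0.09, adjusted p = 0.03), with an adjusted p of 0.0981 without the library labelled Control replicate 3.

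DSTN (destrin, chr20:17550720-17590564, plus strand), an actin depolymerizing factor, was the 1 gene that was lower in both active YAP forms. It was at 194, 207 and 209.7 FPKM in Control, 223, 210.0 and 215 FPKM in YAP-S94A,S127A, 179, 177 and 162 FPKM in YAP-S127A and 149, 141 and 147 FPKM in YAP-2SA, and fell by 0.48 on the log2 scale in YAP-2SA against Control (SE 0.05, adjusted p = 3.75e-05). The 4 groups did not overlap for DSTN, with the YAP-S94A,S127A libraries just above Control. CFL1 (cofilin 1), the related and more abundant factor, was between 817 and 1046 FPKM in all libraries and was not called, with a 95% confidence interval of -0.04 to 0.32 for the log2 difference in YAP-2SA against Control. The ratio of CFL1 to DSTN FPKM was 4.79, 4.36 and 3.90 in Control and 6.70, 6.72 and 6.57 in YAP-2SA (two-sided exact permutation p = 0.1, the smallest possible). LMOD1 (leiomodin 1), a filament nucleator of smooth muscle, was below the minimum for testing, at 0.431, 0.412 and 0.556 FPKM in Control and 0.196, 0.174 and 0.266 FPKM in YAP-2SA, without overlap. In the fit without the minimum on FPKM its log2 difference in YAP-2SA against Control was -0.27 (SE 0.06, adjusted p = 0.007), and -0.23 with an adjusted p of 0.0287 when the library labelled Control replicate 3 was also left out.

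ROCK1 and ROCK2 are kinases that phosphorylate myosin light chain and its phosphatase and so raise contractility. ROCK2 (chr2:11319885-11488456, minus strand) was at 27.8, 24.8 and 23.8 FPKM in Control, 19.9, 24.1 and 22.5 FPKM in YAP-S94A,S127A, 29.3, 29.1 and 25.5 FPKM in YAP-S127A and 19.3, 18.8 and 20.2 FPKM in YAP-2SA, and fell by 0.37 on the log2 scale in YAP-2SA against Control (SE 0.08, adjusted p = 0.00512). Every YAP-2SA library was below every Control and YAP-S127A library. ROCK1 stayed between 10.1 and 12.9 FPKM in all libraries, with a 95% confidence interval of -0.20 to 0.26 for its log2 difference. The ratio of ROCK2 to ROCK1 FPKM was 2.63, 2.06 and 2.01 in Control and 1.83, 1.56 and 1.61 in YAP-2SA, with a two-sided exact permutation p of 0.1, the smallest possible.

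The YAP-S127A form moved a smaller number of these genes in Control-based comparisons. In YAP-S127A against Control, 9 of 36 genes rose and 1 fell (25% and 2.78%), where 4.56% of all loci rose and 1.75% fell. The median log2 fold change of the 36 genes was 0.16. A rise over 2-fold in mean FPKM was found for 2 genes, TAGLN and MYL9, where 2.07% of loci met both criteria. The genes that rose were TAGLN with a log2 fold change of 0.88 (SE 0.13, adjusted p = 0.00209), MYL9 with 0.93 (SE 0.21, adjusted p = 0.0243), CNN2 with 0.79 (SE 0.06, adjusted p = 3.04e-05), CNN3 with 0.68 (SE 0.05, adjusted p = 1.49e-05), TPM1 with 0.67 (SE 0.08, adjusted p = 0.000685), FLNA with 0.65 (SE 0.09, adjusted p = 0.0016), MYH9 with 0.64 (SE 0.09, adjusted p = 0.00132), TPM4 with 0.45 (SE 0.12, adjusted p = 0.0495) and TPM2 with 0.23 (SE 0.05, adjusted p = 0.0201). Of the 8 tested LIM domain genes none was called and 3 had an unadjusted p under 0.05, where 2953 of all 15055 loci tested were under it. FHL1 had a log2 difference of 0.46 (SE 0.17, adjusted p = 0.164). Whether the classes differed was not tested. DSTN fell by 0.23 on the log2 scale (SE 0.05, adjusted p = 0.0275). Without the library labelled Control replicate 3, 7 genes rose and none fell, against 3.42% and 1.06% of loci, since the adjusted p became 0.0527 for TPM2, 0.0965 for TPM4 and 0.0928 for DSTN. The call for DSTN was also lost without the library labelled Control replicate 2 or YAP-S127A replicate 3, that for TPM2 without Control replicate 2 or YAP-S127A replicate 2 or 3, and that for MYL9 without any single YAP-S127A library. Over the 20 alternative settings the call was lost in 15 for TPM4, 10 of which left out a library, in 6 for TPM2, in 5 for DSTN and in 4 for MYL9.

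**Figure D5:**
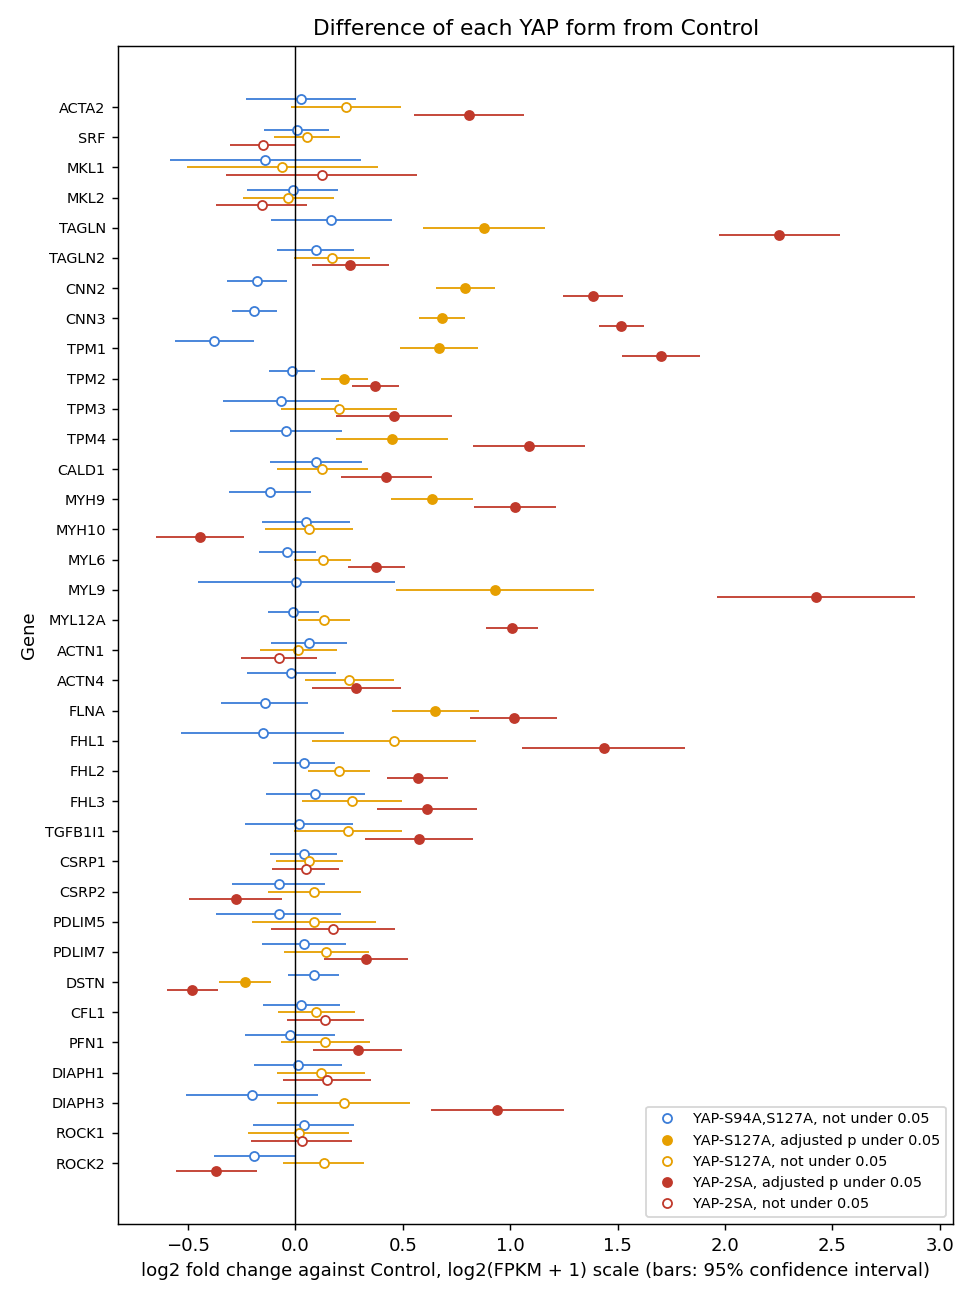
Log2 fold change against Control (log2(FPKM + 1) scale) of the 36 tested genes for the 3 YAP forms, with the 95% confidence interval from limma and filled points where the adjusted p was under 0.05. Red points (YAP-2SA) reach 2.42 for MYL9 and orange points (YAP-S127A) at most 0.93. Blue points (YAP-S94A,S127A) are all open and lie between -0.38 for TPM1 and 0.17 for TAGLN. The blue intervals of TPM1, CNN3, CNN2 and ROCK2 lie below 0.

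With YAP that cannot bind TEADs no gene of the list was called. In YAP-S94A,S127A against Control, limma called 0 of 36 genes higher and 0 lower, where 0.0864% of all loci were higher and 0.093% lower. These counts were near the shares of all loci. At an unadjusted p under 0.05, 4 genes were lower than in Control and none higher, where 1.97% of all loci were lower and 2.42% higher at that threshold: TPM1 at a log2 difference of -0.38 (SE 0.08, adjusted p = 0.371), CNN3 at -0.19 (SE 0.05, adjusted p = 0.568), CNN2 at -0.18 (SE 0.06, adjusted p = 0.919) and ROCK2 at -0.19 (SE 0.08, adjusted p = 1). The TPM1 and CNN3 levels of this group did not overlap with Control. For the genes that moved most in YAP-2SA cells the 95% confidence interval of this difference was -0.12 to 0.45 for TAGLN and -0.46 to 0.46 for MYL9. The count was also 0 in both directions without the library labelled Control replicate 3.

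The comparison of YAP-S127A with YAP-S94A,S127A sets forms that differ in the TEAD-binding residue against each other and uses no Control library. The forms were carried by separately selected lines, so other differences between the lines cannot be told apart from that of the residue. Here 11 of 36 genes were higher in YAP-S127A and 1 lower (30.6% and 2.78%), where 6.36% of all loci were higher and 4.31% lower. The median log2 fold change was 0.17. CNN2 differed by 0.97 (SE 0.06, adjusted p = 5.94e-06), CNN3 by 0.87 (SE 0.05, adjusted p = 2.86e-06) and TPM1 by 1.04 (SE 0.08, adjusted p = 2.46e-05) on the log2 scale, and the libraries of the 2 groups did not overlap for any of them. For CNN3 and TPM1 the YAP-S94A,S127A libraries lay below those of Control, which adds to their difference here. The motor and crosslinker genes followed, with MYL9 at 0.92 (SE 0.21, adjusted p = 0.0177), FLNA at 0.79 (SE 0.09, adjusted p = 0.00033) and MYH9 at 0.75 (SE 0.09, adjusted p = 0.000322). TAGLN was higher by 0.71 (SE 0.13, adjusted p = 0.0056), FHL1 by 0.61 (SE 0.17, adjusted p = 0.0472), TPM4 by 0.49 (SE 0.12, adjusted p = 0.0237) and TPM2 by 0.24 (SE 0.05, adjusted p = 0.0101). ROCK2 was higher by 0.32 (SE 0.08, adjusted p = 0.0364), whereas in YAP-2SA against Control it was lower. DSTN fell by 0.32 on the log2 scale (SE 0.05, adjusted p = 0.00394). A rise over 2-fold was found for 2 genes, TPM1 and MYL9, where 2.54% of loci met both criteria. Over the 20 alternative settings the call was lost in 11 for FHL1, 9 of which left out a library, in 9 for ROCK2, 7 of which left out a library, in 5 for TPM4, in 3 for MYL9 and in 1 for TPM2. MYL9 was not called without YAP-S127A replicate 1 or YAP-S94A,S127A replicate 2 or 3, and TPM4 was not called without YAP-S127A replicate 2 or 3 or YAP-S94A,S127A replicate 1 or 3.

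YAP-2SA against Control and YAP-S127A against YAP-S94A,S127A share no library. Of the genes higher in the first, 10 were also higher in the second, which is 43.5% of 23 and 90.9% of 11: TAGLN, CNN2, CNN3, TPM1, TPM2, TPM4, MYH9, MYL9, FLNA and FHL1. Over all loci tested, 854 were higher in both, which is 24.8% of 3443 and 89.1% of 958, so the second share was near that of all loci. DSTN was lower in both, which is 25% of 4 and 100% of 1. Over all loci tested, 517 were lower in both, which is 17.6% of 2932 and 79.7% of 649. ROCK2 was the only gene called in opposite directions, lower in the first and higher in the second. Over all loci tested, 11 were called in these directions, which is 0.375% of 2932 and 1.15% of 958. The MYH9 to MYH10 ratio was 1.51 ± 0.157 (SD, n = 3) in YAP-S127A and 0.894 ± 0.0995 (SD, n = 3) in YAP-S94A,S127A, with a two-sided exact permutation p of 0.1, the smallest possible, and MYH10 alone did not pass the test (0.01 (SE 0.09, adjusted p = 0.956) on the log2 scale).

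The 2 active forms also differed from each other. In YAP-2SA against YAP-S127A, 18 of 36 genes were higher and 5 lower (50% and 13.9%), where 18.3% of all loci were higher and 14.5% lower, so the share of falls was near that of all loci. MYL9 differed by 1.495 (SE 0.21, adjusted p = 0.000284), TAGLN by 1.38 (SE 0.13, adjusted p = 1.47e-05), TPM1 by 1.03 (SE 0.08, adjusted p = 4.64e-06) and FHL1 by 0.98 (SE 0.17, adjusted p = 0.00141) on the log2 scale, and these were the 4 genes with a ratio over 2, where 5.17% of loci met both criteria. MYL12A was higher in YAP-2SA by 0.88 (SE 0.05, adjusted p = 6.92e-07) but did not pass the test in YAP-S127A against Control, at 0.13 (SE 0.05, adjusted p = 0.207). A like pattern was seen for ACTA2, which differed by 0.57 (SE 0.12, adjusted p = 0.00339) between the 2 forms and by 0.24 (SE 0.12, adjusted p = 0.302) between YAP-S127A and Control, and for DIAPH3, with 0.72 (SE 0.14, adjusted p = 0.00268) and 0.22 (SE 0.14, adjusted p = 0.423). The other genes higher in YAP-2SA were CNN2, CNN3, TPM2, TPM4, CALD1, MYH9, MYL6, FLNA, FHL2, FHL3 and TGFB1I1, with log2 differences from 0.14 for TPM2 to 0.83 for CNN3. The genes lower in YAP-2SA were MYH10 at -0.51 (SE 0.09, adjusted p = 0.00177), ROCK2 at -0.50 (SE 0.08, adjusted p = 0.00112), CSRP2 at -0.37 (SE 0.10, adjusted p = 0.0152), DSTN at -0.24 (SE 0.05, adjusted p = 0.00559) and SRF at -0.21 (SE 0.07, adjusted p = 0.0416). The SRF levels of these 2 groups overlapped. Over the 20 alternative settings the call was lost in 13 for TGFB1I1, in 12 for TPM2, in 11 for SRF, in 9 for CALD1, in 5 for FHL3, in 2 for MYL6 and in 1 each for FLNA and CSRP2. Leaving out a library accounted for 8, 9, 10, 7 and 4 of these losses for TGFB1I1, TPM2, SRF, CALD1 and FHL3, and leaving out YAP-S127A replicate 3 for that of CSRP2. Without YAP-S127A replicate 3 the number of genes lower was 3. Without the library labelled Control replicate 3, which enters only the shared estimate of spread, 16 genes were higher and 4 lower.

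In YAP-2SA against YAP-S94A,S127A, 22 of 36 genes were higher and 2 lower (61.1% and 5.56%), where 23.2% of all loci were higher and 20.3% lower. A rise over 2-fold was found for 11 genes, where 7.81% of loci met both criteria. This comparison shares the YAP-2SA libraries with YAP-2SA against Control. TPM1 differed by 2.08 (SE 0.08, adjusted p = 1.06e-08), a 4.31-fold ratio of mean FPKM, against 3.30-fold in YAP-2SA against Control. MYL9 differed by 2.42 (SE 0.21, adjusted p = 4.32e-06) and TAGLN by 2.09 (SE 0.13, adjusted p = 3.02e-07). MYH10 at -0.49 (SE 0.09, adjusted p = 0.00137) and DSTN at -0.56 (SE 0.05, adjusted p = 9.87e-06) were the 2 genes lower, while ROCK2, at -0.18 (SE 0.08, adjusted p = 0.118), did not pass the test.

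Other genes of the same machinery were counted in lists by function, each in YAP-2SA against Control, beside 22.9% of all loci higher and 19.5% lower. Of 11 tested genes for other actin isoforms and partners of monomeric actin, 8 rose and 1 fell. TMSB4X, a thymosin that sequesters actin monomers, went from a mean of 138 to 591 FPKM, a log2 fold change of 2.10 (SE 0.08, adjusted p = 9.27e-09), and TMSB10 of the same family changed by 1.18 (SE 0.06, adjusted p = 5.43e-08). CFL2, the muscle cofilin, rose by 0.66 (SE 0.08, adjusted p = 4.09e-05) and TWF2, a twinfilin that binds monomers and caps filaments, changed by -0.28 (SE 0.08, adjusted p = 0.0178). The Arp2/3 complex, which makes branched networks, and its activators had 13 tested genes, of which 4 rose and none fell, the largest change being 0.47 (SE 0.10, adjusted p = 0.00263) for WASF3.

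Of 19 tested genes for capping, severing and crosslinking, 10 rose and 5 fell. LASP1, an actin-binding LIM and SH3 protein, changed by 1.60 (SE 0.07, adjusted p = 3.4e-08) and TMOD3, which caps the slow-growing filament end, by 1.38 (SE 0.12, adjusted p = 4.63e-06). GSN (gelsolin), a calcium-dependent severing protein, had the largest fall of the actin lists, from a mean of 288 FPKM in Control to 25.9 FPKM in YAP-2SA, a log2 fold change of -3.43 (SE 0.12, adjusted p = 5.39e-09). In YAP-S127A against YAP-S94A,S127A the log2 difference of GSN was -0.42, adjusted p = 0.0554. Of 13 tested genes in the list of myosin light chain regulation and other myosins, 6 rose and 3 fell. MYLK (myosin light chain kinase) changed by 1.82 (SE 0.18, adjusted p = 1.35e-05) and MYO10, the motor of filopodia, by 1.77 (SE 0.10, adjusted p = 1.24e-07), whereas MYO1E changed by -1.35 (SE 0.06, adjusted p = 1.98e-08). Without the library labelled Control replicate 3, the rises and falls were 7 and 1 in the list of actin isoforms and monomer partners, 4 and 0 for the Arp2/3 complex, 9 and 4 for capping, severing and crosslinking, and 6 and 3 for the myosin list.

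SRF targets known for different cofactors were counted separately. Of 20 other tested genes attributed to MKL1, MKL2 and SRF, 14 rose and 5 fell in YAP-2SA against Control, with a median log2 fold change of 0.92. The largest rises were ANKRD1, a muscle ankyrin repeat protein that is also a YAP and TEAD target, at 3.39 (SE 0.21, adjusted p = 4.18e-07), PDLIM1 at 3.02 (SE 0.14, adjusted p = 4.69e-08) and NEXN (nexilin), a filament-binding protein, at 2.96 (SE 0.10, adjusted p = 4.71e-09). Mean FPKM of ANKRD1 and NEXN was 0.744 and 0.625 in Control and 0.887 and 0.568 in YAP-S94A,S127A. These means were under the minimum for testing, which could be met through the groups with higher levels. The largest falls were PDLIM4 at -1.09 (SE 0.10, adjusted p = 9.59e-06), TGFBI at -0.97 (SE 0.09, adjusted p = 9.57e-06) and CRYAB, a small heat shock protein, at -0.90 (SE 0.21, adjusted p = 0.00523). CRYAB was low, with means of 0.959 FPKM in Control and 0.0304 FPKM in YAP-2SA. It was not among the tested genes without the library labelled Control replicate 3. Several genes of this list are known targets of YAP and TEADs as well, so it does not separate the 2 pathways. In YAP-S127A against YAP-S94A,S127A, 12 of the 20 were higher and 1 lower, where 6.36% of all loci were higher and 4.31% lower. Immediate-early genes that SRF controls with the ternary complex factors, and the genes of those factors, moved in the opposite direction: of 11 tested, none rose and 9 fell in YAP-2SA against Control, with a median of -1.10. EGR1 changed by -2.64 (SE 0.18, adjusted p = 8.47e-07), NR4A1 by -2.56 (SE 0.07, adjusted p = 1.03e-09) and EGR3 by -2.11 (SE 0.18, adjusted p = 3.63e-06). In YAP-S127A against YAP-S94A,S127A, 4 of these 11 were lower and none higher, beside the same 4.31% and 6.36% of all loci. Of 6 tested genes for other cofactors, inhibitors and transport factors of MKL1 and MKL2, 3 rose and none fell. They were KPNA2 at 0.41 (SE 0.07, adjusted p = 0.000869), KPNB1 at 0.35 (SE 0.09, adjusted p = 0.00719) and XPO1 at 0.34 (SE 0.08, adjusted p = 0.00378), which move cargo in and out of the nucleus. MYOCD, the muscle member of the cofactor family, was not among the tested genes. Without the library labelled Control replicate 3 these 3 lists had 14 rises and 3 falls of 19, no rise and 10 falls of 11, and 3 rises and no fall of 6.

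Because several of the rising genes mark smooth muscle and myofibroblasts, markers of fibroblasts and mural cells were examined beside them. Of 7 tested markers, 3 rose and 2 fell in YAP-2SA against Control (42.9% and 28.6%), where 22.9% of all loci rose and 19.5% fell. The counts were the same without the library labelled Control replicate 3, where 20% and 17.2% of loci did. COL1A1, the type I collagen gene, went from a mean of 0.322 to 33.4 FPKM (4.70 (SE 0.13, adjusted p = 8.91e-10) on the log2 scale) and PDGFRB changed by 1.65 (SE 0.16, adjusted p = 1.28e-05), while CSPG4 changed by -0.92 (SE 0.15, adjusted p = 0.000667) and S100A4 by -0.33 (SE 0.05, adjusted p = 0.000401). The summed FPKM of the 12 listed markers was between 429.8 and 460.7 in Control, 475.0 and 481.4 in YAP-S94A,S127A, 369.3 and 416.6 in YAP-S127A and 370.2 and 390.7 in YAP-2SA. Without S100A4 and PDGFRA, which made up most of it, the sum was between 64.6 and 94.4 in Control and between 80.8 and 88.7 in YAP-2SA, so the groups overlapped. This sum joins opposite changes and does not show those of single markers. CSPG4 had means of 69.6 FPKM in Control and 35.9 FPKM in YAP-2SA, and PDGFRB means of 2.61 and 10.4 FPKM. COL1A1 rose as given above. Its means of 0.322 FPKM in Control and 0.209 FPKM in YAP-S94A,S127A were under the minimum for testing. That minimum could be met through the groups with higher levels. Among the defining fibroblast genes DCN, THY1 and FAP were below the minimum for testing. LUM, the third marker that rose, went from a mean of 1.38 FPKM in Control to 2.30 FPKM in YAP-2SA. Its log2 fold change was 0.475 (SE 0.13, adjusted p = 0.0139). Of the melanocyte markers, MITF changed by 1.96 (SE 0.26, adjusted p = 0.000126) and SOX10 by -5.22 (SE 0.15, adjusted p = 1.48e-09), and the summed FPKM of the 7 listed genes was between 239.4 and 293.0 in Control and between 38.5 and 49.2 in YAP-2SA. The part of these changes in the levels of the actin and SRF genes was not tested.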

How the data were processed

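RNA from 12 A375 libraries was sequenced, 3 per group. By the study's methods and the submitters' processing notes, which name bcl2fastq 2.15.0, Bowtie2 2.0.0, TopHat2 2.0.4, Cufflinks 2.0.2 and hg19, the authors aligned the reads, assembled transcripts and deposited a log2 value of FPKM + 1 for each locus and library. How reads with several alignments were divided is not given in the sources used here. The FPKM steps of low loci did not allow reads to be recovered, since at most 11.4% of at least 1039 loci shared a step ratio between libraries.

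From the deposited values, 3 repeated entries were removed and the 12 libraries were fitted together in limma 3.58.1 (R 4.3.3) with the group as the single factor, an intensity trend and Benjamini-Hochberg adjustment over the 15055 loci with at least 1 FPKM in at least 3 libraries. Calls were made at an adjusted p under 0.05. Genes whose ratio of mean FPKM also exceeded 2 were counted separately. Ratios between genes were compared by exact permutation tests (scipy 1.17.1). The fit was tested on simulated data. Coordinates are from the GENCODE annotation of GRCh37 and promoter windows from RefSeq. Plots used matplotlib 3.10.9 under Python 3.11.15.

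The members and the lists of related genes were chosen with earlier results of these data known. All 40 members were named, and those called in YAP-2SA against Control or in YAP-S127A against YAP-S94A,S127A were given with every library. From each list up to 3 called genes in each direction, by size of change in YAP-2SA against Control, were named, except for items that are not reported here. Alternatives were another number added to FPKM, other filters, median-ratio and quantile normalization, fits of 6 libraries, no trend, the replicate number as a block and each library left out in turn. Leaving out the library labelled Control replicate 3 from the gene lists, from the ratios and, together with the minimum on FPKM, from the fit of the lowest genes was added after seeing the data. No set test was run.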

Additional observations from a re-analysis of the deposited data

How the results depend on the processing

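Of the 216 differences of single genes, the 111 that were called in at least 1 setting did not reverse their direction under any alternative. Of the other 105, 49 changed sign in at least 1 setting, all of them at most 0.14 in size on the log2 scale in the main fit. After the change of sign the size reached 0.27, for MYL9 in YAP-S94A,S127A against Control. Of 2220 values of the 111 differences under the alternatives, 2046 stayed on their side of the threshold, 152 were no longer past it and 22 came to pass it. With a ratio of mean FPKM over 2 added to the call, the genes higher were 11 in YAP-2SA against Control, 2 in YAP-S127A against Control, 4 in YAP-2SA against YAP-S127A, 2 in YAP-S127A against YAP-S94A,S127A and 11 in YAP-2SA against YAP-S94A,S127A, and the genes lower were 0 in each, because small changes are then not counted. Quantile normalization gave 0 genes lower in YAP-S127A against Control and 4 lower in YAP-2SA against YAP-S94A,S127A, and a fit of only the 6 libraries compared gave 0 lower in YAP-S127A against Control. The cause was not tested. Leaving out each library in turn gave 20 to 23 genes higher and 3 to 4 lower in YAP-2SA against Control, 6 to 9 and 0 to 1 in YAP-S127A against Control, 0 and 0 in YAP-S94A,S127A against Control, 14 to 18 and 3 to 5 in YAP-2SA against YAP-S127A, 8 to 11 and 1 in YAP-S127A against YAP-S94A,S127A, and 19 to 23 and 2 to 3 in YAP-2SA against YAP-S94A,S127A. The 18 pairs of libraries with the same replicate number in 2 groups correlated at -0.15 to 0.16 in their deviations from the group means, 2 of them over 0.1, and 5 of 12 libraries correlated best with their own number, so the numbers were not taken to pair the samples. With the replicate number as a block, the genes higher were 24, 10, 0, 18, 12 and 23 and the genes lower 3, 1, 0, 5, 1 and 2, in the order of comparisons just given. Scalings moved the median difference of all loci by less than 0.1 on the log2 scale. The unknown depth limits the low genes most.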
